A study of Mus musculus with 4 samples.

Results

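The comparison described here sets the arrays of mouse MC/9 cells given an anti-DNP IgE antibody against the arrays of the same cells without it, 2 arrays with IgE and 2 without, which together are all 4 arrays of the study. The labels call MC/9 a mast cell line derived from fetal liver and give its strain as (B6 X A/J)F1; the marker signals given below go against that cell type, so the arrays are described here by their labels and treatment. The 4 groups hold 1 array each: Control, which had no treatment; BER, which had 10 microM berberine; DNP, as the labels call the cells with anti-DNP IgE at 500 microg/ml; and BER+DNP, which had both agents. All groups were grown in the same medium, which held 2-mercaptoethanol and a rat T-cell culture supplement. Berberine is a plant alkaloid. The IgE arrays were chosen by their labels alone, and each was matched to the array with the same berberine state, giving 2 differences, DNP minus Control and BER+DNP minus BER, that share no array. The 3 treated groups had 24 h of treatment and then 6 h of culture. The labels give no times for the Control culture, so IgE and time in culture cannot be told apart in DNP minus Control, whereas BER+DNP and BER carry the same times. The labels name the antibody but no later addition of DNP antigen.

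Mast cells carry the high-affinity IgE receptor, built from a ligand-binding alpha chain (Fcer1a), a signal-amplifying beta chain (Ms4a2) and a signalling gamma chain (Fcer1g). Antigen that crosslinks receptor-bound IgE starts a cascade through Lyn and Syk to phospholipase C, calcium entry, MAP kinases and NF-kB, which ends in release of histamine and proteases, eicosanoid synthesis and cytokine transcription. IgE without antigen is known to stabilise the receptor at the cell surface, and some IgE preparations also signal weakly.

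Signals were read for 45037 probe sets after 64 control probe sets were set apart. The brightest probe set stood for each gene, and 12585 of 18193 genes passed a filter at the median signal, 3.14 on the log2 scale. With 1 array per group, the number of arrays limits the precision, and the 2 matched pairs are the only repeat of the IgE comparison. Whether the 4 arrays came from separate cultures is not given, so a difference may be technical, and in RNA from whole cultures a change in the mix of cells cannot be told apart from a change per cell. The mast cell markers went against the labelled cell type: of 17 on the array, 8 passed the filter. The median signal of the 17 stood at percentile 22.9 of all genes. Kit, Fcer1a, Ms4a2, Cpa3 and Srgn did not pass, while Gata2 (mean log2 signal 5.87), Hdc (5.50) and Tpsb2 (4.08) did. Of 12 epithelial markers, 9 passed, including Krt17 (mean log2 signal 9.60), Krt14 (8.61) and Krt8 (7.33), with a median at percentile 76.4. The epithelial markers Cdh1, Dsp and Perp did not pass. Of 4 T cell markers on the array, 3 passed, with a median at percentile 87.9, above that of the epithelial list. The marker signals thus do not single out an epithelial identity. The summed unlogged signal of the 17 mast cell markers was 212 in Control against 244 in DNP, and 213 in BER against 241 in BER+DNP. The summed signal of 12 epithelial markers was 1505 in Control against 1648 in DNP, and 1529 in BER against 1611 in BER+DNP, and that of 10 leukocyte markers was 201 against 188, and 208 against 178, in the same order. That of 6 macrophage markers was 87.7 against 102, and 98.2 against 103. The mast cell, epithelial and macrophage sums were higher on both IgE arrays and the leukocyte sum was lower, but members within a list differed: 8 mast cell markers were above 0 in both pairs and 4 below, 4 epithelial above and 3 below, 3 macrophage above and 1 below, and 2 leukocyte above and 6 below. A sum of unlogged signals weighs its brightest members most. Among the bright epithelial markers, Krt14 differed by 0.18 and 0.26 and Krt17 by 0.18 and -0.00. Laptm5, the brightest leukocyte marker, differed by -0.18 and -0.34. Of the brightest mast cell markers, Gata2 differed by 0.44 and 0.24 and Hdc by -0.10 and 0.54. The part of these markers in the results below was not tested.

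Few genes differed much with IgE, and those that did were led by Sh2b3 and Sp1, which were higher, and Akp3 and Ager, which were lower. Differences are in log2 units, IgE minus no IgE, and where a gene has a pair of them the one without berberine comes first. By its brightest probe set, no other gene past the filter reached 1.5-fold with one sign in both pairs. That is 2 genes higher (0.0159% of 12585) and 2 lower (0.0159%). None of these 12585 genes was 1.5-fold apart in opposite directions, while Cpa3, below the filter, was (0.65 and -0.64). In single pairs, DNP minus Control gave 101 genes 1.5-fold higher (0.803%) and 79 lower (0.628%), and BER+DNP minus BER gave 70 higher (0.556%) and 45 lower (0.358%). At 1.3-fold, 53 genes were higher in both pairs (0.421%) and 47 were lower in both (0.373%), against 36 that passed 1.3-fold in opposite directions. At 1.2-fold the counts were 251 higher, 204 lower and 216 opposite. Same-direction genes thus outnumbered opposite ones more clearly at 1.3-fold than at 1.2-fold.

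The size of the IgE difference was little larger than its disagreement between pairs. Across 12585 genes, the SD of the mean of the 2 differences was 0.16 log2 units and the SD of a pair's deviation from that mean was 0.14, a ratio of 1.19. The ratio went from 1.12 in the quartile of genes with the lowest signal to 1.32 in the quartile with the highest. Both differences were above 0 for 29.4% of genes and below 0 for 26%, and in the highest quartile of signal for 34.1% and 23.5%. In limma's additive model, with terms for IgE and berberine and Benjamini-Hochberg adjustment over 45037 probe sets, 0 probe sets (0%) passed an adjusted p of 0.05, and the smallest adjusted p was 0.672. Without adjustment, 1400 probe sets (3.11%) were higher and 1457 (3.24%) lower at p under 0.05. The model has 1 residual degree of freedom, which is the difference between the pairs, so an IgE effect that differs with berberine counts there as error. The 6 other settings of the model also gave 0 calls, with smallest adjusted p from 0.602 to 0.781. No gene below is therefore described as changed, and genes are given by their 4 signals, their 2 differences or a mean difference.

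**Figure D1:**
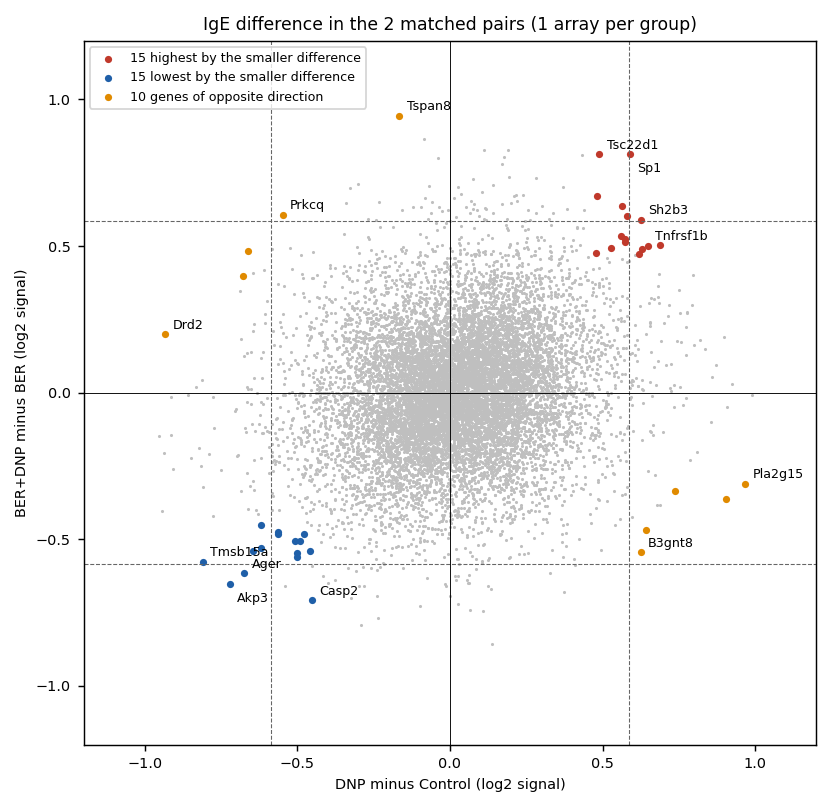
Each point is 1 of 12585 genes, with the log2 difference DNP minus Control on the horizontal axis and BER+DNP minus BER on the vertical axis; dashed lines mark 1.5-fold. Sh2b3 and Sp1 lie past both lines at the upper right and Akp3 and Ager at the lower left, and the coloured points are the 15 highest, the 15 lowest and 10 genes of opposite direction.

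Sh2b3 encodes the adaptor Lnk, which dampens signalling from Kit and from cytokine receptors. Its log2 signal was 4.28 in Control against 4.90 in DNP, and 4.19 in BER against 4.78 in BER+DNP. Both IgE arrays lay above both arrays without it, and the mean difference was 0.61 ± 0.08 (limma SE, adjusted p = 0.672), or 1.52-fold. Sp1 encodes a zinc-finger transcription factor that binds GC boxes in many promoters. It read 3.21 in Control against 3.80 in DNP, and 3.30 in BER against 4.12 in BER+DNP, a mean difference of 0.70 ± 0.11 (limma SE, adjusted p = 0.672). The lowest of these signals was just above the filter of 3.14.

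Akp3 encodes an intestinal alkaline phosphatase, an enzyme of the gut brush border. Its log2 signal was 4.06 in Control against 3.34 in DNP, and 4.36 in BER against 3.71 in BER+DNP. Both IgE arrays lay below both others, with a mean difference of -0.69 ± 0.09 (limma SE, adjusted p = 0.672). Ager is the cell-surface receptor for sugar-modified (advanced glycation) proteins, which also binds S100 proteins and is abundant in lung. Its signal was 5.99 in Control against 5.32 in DNP, and 6.07 in BER against 5.45 in BER+DNP, a mean difference of -0.64 ± 0.07 (limma SE, adjusted p = 0.672).

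The promoters of 1 gene of each direction are shown because Sp1 protein is itself a promoter-binding factor: the 250 bases upstream of the annotated start of Sp1, at chr15:102406066-102406315 on the plus strand, and of Akp3, at chr1:87124704-87124953 on the plus strand, from RefSeq on GRCm38.p6. Capitals mark the GC box letters GGGCGG, searched on both strands.
Sp1: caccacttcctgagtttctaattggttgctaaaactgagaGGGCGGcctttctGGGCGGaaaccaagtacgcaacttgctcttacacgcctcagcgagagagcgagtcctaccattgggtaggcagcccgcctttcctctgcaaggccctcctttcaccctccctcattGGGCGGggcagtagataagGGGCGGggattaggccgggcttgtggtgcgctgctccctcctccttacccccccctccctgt
Akp3: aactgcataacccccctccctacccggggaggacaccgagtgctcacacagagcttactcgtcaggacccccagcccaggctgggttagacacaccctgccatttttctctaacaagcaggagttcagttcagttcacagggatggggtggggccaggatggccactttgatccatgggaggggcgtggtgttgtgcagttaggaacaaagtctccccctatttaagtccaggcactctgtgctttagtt
The Sp1 window held 4 such matches and the Akp3 window held 0. The windows listed for Sh2b3, the other leading higher gene, and for Ager also held 0. Those windows lie inside the annotated span of their genes and are not printed, so no conclusion on direction is drawn from these 4 genes. The motif was found in 53.9% of the 10057 genes past the filter with a promoter in the table, in 24 of 42 genes at least 1.3-fold higher in both pairs (57.1%) and in 20 of 38 at least 1.3-fold lower (52.6%). Its share was thus near that of all filtered genes in both directions. A match of letters is a description of the sequence and not evidence of binding.

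The next genes on the higher side were led by 3 that stood just under 1.5-fold in 1 pair or both, Cga, Phyhip and Efhd2. Cga, the alpha subunit shared by the glycoprotein hormones, differed by 0.58 without and 0.60 with berberine. Phyhip, which encodes a partner of phytanoyl-CoA hydroxylase, differed by 0.56 and 0.63. Efhd2, a calcium-binding protein also called swiprosin-1, read 6.67 in Control against 7.23 in DNP, and 6.05 in BER against 6.59 in BER+DNP. Efhd2 was the only one of the 15 leading higher genes whose IgE and other arrays overlapped, since Control lay above BER+DNP, while its differences in the pairs were close, 0.56 and 0.53. Tnfrsf1b, the type 2 receptor for TNF, read 4.31 in Control against 4.96 in DNP, and 4.18 in BER against 4.68 in BER+DNP. C1qa, a chain of complement C1q that macrophages make, read 3.83 in Control against 4.41 in DNP, and 3.80 in BER against 4.32 in BER+DNP. Both genes are known from immune cells, and for both the IgE arrays lay above the others. Epcam, an epithelial adhesion molecule, read 4.92 against 5.40, and 4.78 against 5.45, in the same order. Tsc22d1, a leucine-zipper protein first found through TGF-beta, differed by 0.49 without and 0.81 with berberine. The remaining higher genes were Syt12 (a synaptotagmin), Cdh26 (a cadherin), Ascc1 (of the activating signal cointegrator complex), Mgat2 (an N-glycan enzyme of the Golgi), Tbc1d16 (a Rab GTPase-activating protein) and Clptm1l (a membrane protein). Their mean differences ran from 0.48 for Tbc1d16 to 0.59 for Cdh26.

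The lower side was led, after Akp3 and Ager, by Tmsb15a, a thymosin that binds actin monomers. Its log2 signal was 4.41 in Control against 3.61 in DNP, and 4.34 in BER against 3.76 in BER+DNP. Its difference of -0.81 without berberine was the largest in size of the 30 leading genes in DNP minus Control, and with berberine it was -0.58. Micos10, part of the complex that shapes mitochondrial cristae, read 7.02 in Control against 6.38 in DNP, and 6.97 in BER against 6.43 in BER+DNP. Icam4, an adhesion molecule known from red cells, differed by -0.62 and -0.53. Casp2, an initiator caspase, read 5.03 in Control against 4.58 in DNP, and 5.09 in BER against 4.39 in BER+DNP, with the larger difference in the berberine pair. H2-Ea, the alpha chain of a class II antigen-presenting molecule, read 6.68 in Control against 6.12 in DNP, and 6.81 in BER against 6.33 in BER+DNP. On antigen-presenting cells this molecule displays peptides to T cells. Mbd3, a subunit of the NuRD chromatin remodelling complex, differed by -0.49 and -0.51. Upk3b, a uroplakin of urothelium and mesothelium, differed by -0.51 in each pair. The others were Akap9 (a scaffold for protein kinase A), Hsd3b1 (a steroid dehydrogenase), Mbp (myelin basic protein), Cd248 (endosialin, a stromal surface protein), Plekha3 (a phosphoinositide-binding Golgi protein) and Sars2 (the mitochondrial seryl-tRNA synthetase), with mean differences from -0.54 for Sars2 to -0.48 for Mbp. None of the 15 lower genes overlapped between the IgE arrays and the others. Over all 12585 genes, both IgE arrays lay above both others for 18.1% and below both for 16.4%, and the 30 leading genes were picked on the same signals.

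**Figure D2:**
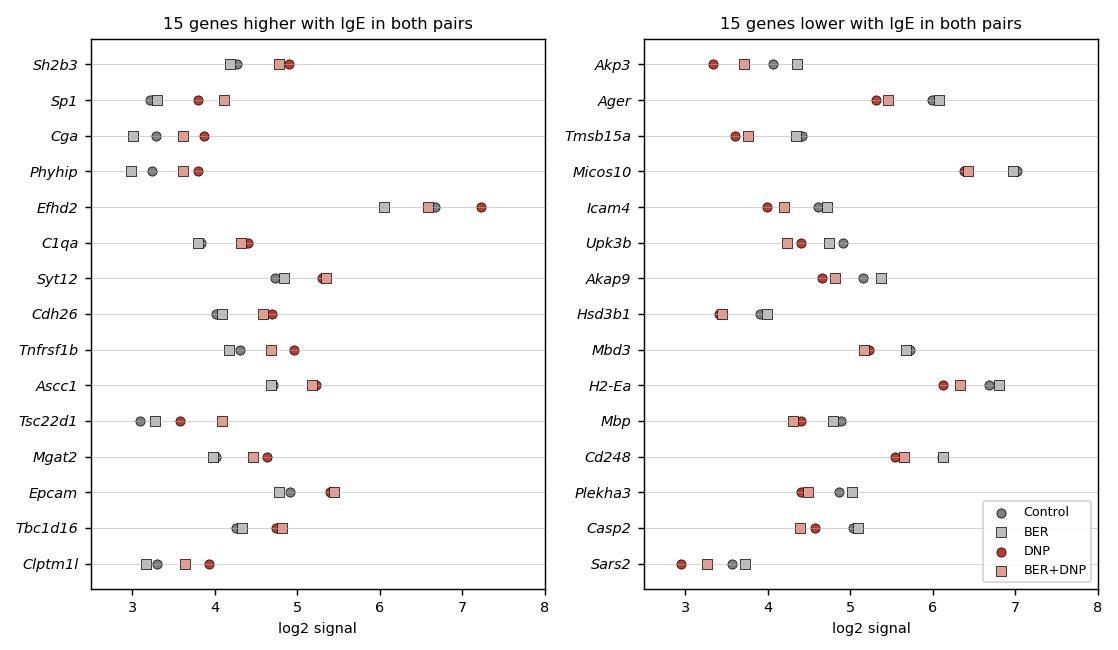
Log2 signal of the 15 leading higher genes (left) and 15 leading lower genes (right) on the 4 arrays, 1 point per array, with circles for arrays without berberine, squares for arrays with it, and red shades for IgE. The red and grey points separate for every gene but Efhd2, whose Control point (6.67) lies above its BER+DNP point (6.59).

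Other probe sets of the same genes mostly did not share these differences. Among the 15 higher genes, 6 had 1 more probe set past the filter each; only 1 of those 6, for Tsc22d1 (0.19 and 0.13), was higher in both pairs, and 2, for Epcam and Tbc1d16, were lower in both. Among the 15 lower genes, 4 had 7 further probe sets past the filter, of which 2 were lower in both pairs and 2 higher in both. No further probe set of the 30 genes passed 1.5-fold. The second Sh2b3 probe set differed by -0.21 without and 0.27 with berberine. The second Ager probe set differed by 0.14 and 0.07, opposite in sign to the first, whose _s_at suffix marks probes that can match more than 1 transcript. Sp1's 2 further probe sets were below the filter, with mean differences of -0.19 and 0.06, and Akp3 has a single probe set. Upk3b was the exception: its probe sets differed by -0.51 and -0.51, and by -0.42 and -0.33, and it was the only 1 of 4089 genes with 2 or more probe sets past the filter in which every one was at least 1.2-fold apart with one sign in both pairs.

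Across those 4089 genes, the mean IgE differences of the 2 brightest probe sets had a Pearson correlation of 0.03 and the same sign in 51.1%. The points share the 4 arrays, and genes are not independent replicates. With the dimmer probe set at or above a log2 signal of 6, the correlation was 0.24 over 217 genes, and at or above 7 it was 0.31 over 84 genes. The matching values for berberine, from the same arrays and probe sets, were 0.13, 0.48 and 0.73.

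**Figure D3:**
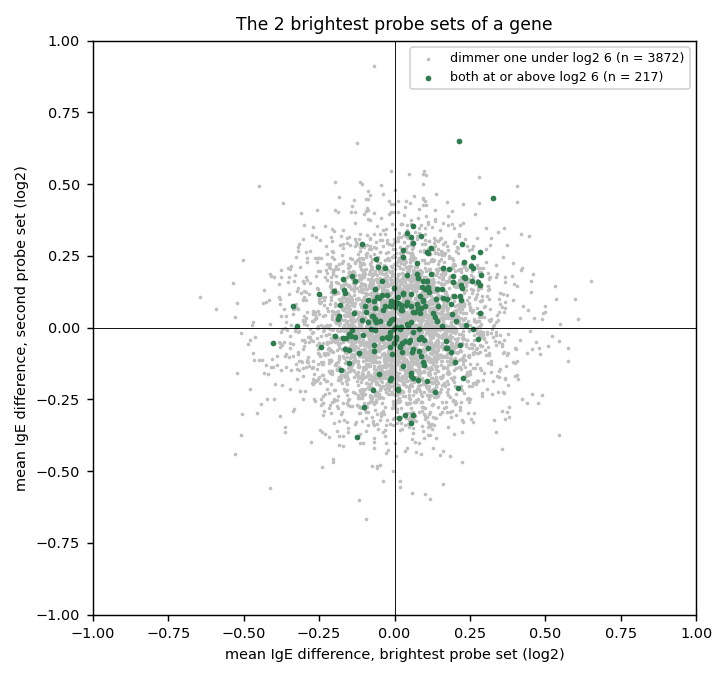
Mean IgE difference (log2) of the brightest probe set of a gene against that of its second brightest, for 4089 genes with both past the filter; green points are the 217 genes with both at or above a log2 signal of 6. The grey cloud is nearly round (correlation 0.03 over all genes), and the green points lean along the diagonal (0.24).

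The receptor and its first signalling proteins gave no common direction. Of 22 genes past the filter, 7 were above 0 in both pairs and 8 below, against 29.4% and 26% of all genes, with a median of -0.00. Fcer1g, the gamma chain, read 3.62 in Control against 3.76 in DNP, and 3.20 in BER against 3.68 in BER+DNP. Its IgE arrays lay above the others, by 0.14 over Control and 0.48 over BER. Fcer1a and Ms4a2 were below the filter, with mean differences of -0.20 and -0.16. Plcg1, the phospholipase C that makes the second messengers for calcium release, differed by 0.45 and 0.19. Pik3cd, the leukocyte phosphoinositide 3-kinase catalytic subunit, differed by -0.44 and -0.17. Lat2, an adaptor downstream of Syk, differed by -0.25 and -0.32.

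Proteins that restrain the receptor numbered 17 past the filter, with a median of 0.03. Of these, 6 were above 0 in both pairs (35.3%, against 29.4% of all genes) and 5 below (29.4%, against 26%). Sh2b3 was the only one past 1.5-fold. Ptpn6, the phosphatase SHP-1, differed by 0.21 and 0.31, and Pirb, an inhibitory receptor, by -0.43 and -0.19. Of 14 adaptors related to Sh2b3, 9 were above 0 in both pairs (64.3%, against 29.4% of all genes) and 2 below (14.3%, against 26%). With the median of each gene's probe sets, 4 of 11 were above (36.4%) and 3 below, and with no filter 9 of 20 were above (45%) and 3 below. Sh2b1 differed by 0.06 and 0.41 and Sh2d2a by 0.38 and 0.20. This list was built around Sh2b3 after its value was known.

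Genes of calcium entry, calcineurin and NFAT leaned lower: 9 of 21 were below 0 in both pairs (42.9%, against 26% of all genes) and 4 above, with a median of -0.05. Nfat5, a transcription factor of osmotic stress, differed by -0.57 and -0.16. Atp2b1, a calcium pump of the plasma membrane, differed by -0.25 and -0.47. Itpr3, a calcium release channel of the endoplasmic reticulum, read 5.24 in Control against 4.91 in DNP, and 5.56 in BER against 5.24 in BER+DNP. Its IgE and other arrays touched, since BER+DNP and Control read the same to 2 decimals. None of the 21 reached 1.3-fold in both pairs.

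Immediate early genes, transcribed within minutes of receptor signalling, leaned higher in sign but were small in size: 12 of 23 were above 0 in both pairs (52.2%, against 29.4%) and 2 below, with a median of 0.04 and from 0.01 to 0.05 under the alternatives. Fos, a subunit of AP-1, read 5.17 in Control against 5.88 in DNP, and 5.32 in BER against 5.58 in BER+DNP. Both IgE arrays were above both others, by 0.71 in the pair without berberine and 0.26 in the pair with it. Jund, another AP-1 subunit, differed by 0.12 and 0.59, and Zfp36, which promotes decay of cytokine mRNAs, by 0.53 and 0.09. Egr1 differed by 0.01 and -0.07. Ier2 went the other way, by -0.38 and -0.24.

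Cytokines and chemokines, the late transcriptional output of activated mast cells, leaned lower in sign without berberine, with a median of -0.07, and not with it, with a median of 0.03. Of 22 past the filter, 2 were above 0 in both pairs (9.09%, against 29.4% of all genes) and 8 below (36.4%, against 26%). The median of the mean differences was -0.03. Tnf was nearly flat, with 5.01 in Control against 4.95 in DNP, and 5.05 in BER against 4.99 in BER+DNP. Ccl2 differed by 0.01 and 0.02 and Ccl3 by -0.01 and -0.06. The largest was Ccl1, a chemokine of activated T cells and mast cells, which differed by -0.58 and -0.35, followed by Cxcl1, a chemokine for neutrophils, at -0.51 and -0.17. Il4, Il6 and Il13 were below the filter on average.

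The remaining signalling lists held members on both sides, to be read against 29.4% of all genes above 0 in both pairs and 26% below. For 19 MAP kinase genes the counts were 5 above and 7 below 0 in both pairs; Dusp16, a phosphatase of JNK and p38, differed by -0.64 and -0.40 and Map3k7, the kinase TAK1, by -0.49 and -0.31. For 16 NF-kB genes they were 4 and 7; Bcl3, a nuclear cofactor of NF-kB, differed by -0.29 and -0.40 and Cyld, a deubiquitinase that restrains NF-kB, by 0.35 and 0.28. Nfkbia, the inhibitor that NF-kB itself induces, differed by 0.02 and -0.19. For 22 genes of cytokine receptors and JAK-STAT they were 9 and 7; Il6st, the shared gp130 chain, differed by -0.51 and -0.36 and Jak1 by 0.25 and 0.37, while Cish differed by 0.03 and 0.14. For 15 interferon-response genes they were 4 and 4, with Rsad2 at 0.37 and 0.38 and Bst2 at -0.32 and -0.41. For 16 Sp and Klf factors they were 8 (50%) and 4 (25%), and Klf15 differed by 0.28 and 0.61. That list includes Sp1 and was chosen with earlier results of these data known.

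Granule genes also split. Of 12 past the filter, 5 were above 0 in both pairs (41.7%, against 29.4% of all genes) and 4 below (33.3%, against 26%), with a median of 0.05. Mcpt2, a chymase of mucosal mast cells, read 3.31 in Control against 3.99 in DNP, and 3.17 in BER against 3.47 in BER+DNP. Both IgE arrays were above both others, all close to the filter of 3.14. Hdc, which makes histamine, differed by -0.10 and 0.54. Cpa3 lay below the filter and differed by 0.65 and -0.64. For 17 exocytosis genes, 5 were above 0 in both pairs (29.4%, the share of all genes) and 2 below (11.8%). Vamp3, a vesicle SNARE, differed by 0.26 and 0.49. For 13 eicosanoid genes, 5 were above (38.5%) and 2 below (15.4%), and Ptges, which makes prostaglandin E2, differed by -0.49 and -0.15. Ptgs2, the inducible cyclooxygenase, was below the filter and differed by 0.48 and 0.21.

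Genes of the Bcl2 family, which set the threshold for apoptosis, had a median of 0.16. Of 11, 7 were above 0 in both pairs (63.6%, against 29.4% of all genes) and 1 below (9.09%, against 26%). Bcl2, which protects cells, read 4.82 in Control against 5.34 in DNP, and 5.19 in BER against 5.35 in BER+DNP. Both IgE arrays were above both others. The members above 0 were of both kinds, since Bmf (0.31 and 0.22), Bid (0.22 and 0.20) and Bad (0.13 and 0.27) promote death, while Hrk, which also promotes death, differed by -0.23 and -0.11. None reached 1.3-fold in both pairs, and with the median of each gene's probe sets 3 of 8 were above 0 in both, with a median of 0.06. The 12 widely expressed reference genes had a median of 0.10, with 7 above 0 in both pairs (58.3%) and 2 below (16.7%). With the median of each gene's probe sets, the reference genes had a median of 0.12, above that of the Bcl2 family there. The 4 alkaline phosphatases had a median of -0.30. This list includes Akp3 and was chosen with earlier results of these data known. Alppl2 differed by -0.19 and -0.55, Alpi by -0.02 and -0.42, and Alpl by 0.34 and -0.04. Alppl2, Alpi and Akp3 are close relatives in sequence, and cross-hybridisation between their probes was not tested.

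Families defined by symbol, picked after their values were seen, showed a small lean upward for genes of the ribosome and the proteasome. Of 43 cytosolic ribosomal protein genes, which encode the ribosome's protein part, 27 were above 0 in both pairs (62.8%, against 29.4% of all genes). Below 0 in both were 2 (4.65%, against 26%), and the median was 0.09. Rpl19 read 9.06 in Control against 9.30 in DNP, and 8.81 in BER against 9.49 in BER+DNP, and Rpl37 read 9.11 against 9.41, and 9.32 against 9.64, in the same order. Of 35 proteasome subunit genes, 20 were above 0 in both pairs (57.1%) and 6 below (17.1%), with a median of 0.09. Psmb6, a catalytic subunit, read 6.78 in Control against 7.18 in DNP, and 6.63 in BER against 6.95 in BER+DNP. After quantile normalization, 16 of 43 ribosomal genes were above 0 in both pairs (37.2%, against 27.8% of all genes), with a median of 0.04. For proteasome genes it was 15 of 35 (42.9%), with a median of 0.05. Below 0 in both were 3 ribosomal genes (6.98%) and 7 proteasome genes (20%), against 28.8% of all genes. Without quantile normalization, the mitochondrial ribosomal genes lay closer to all genes (25 of 67 above, 37.3%, and 16 below, 23.9%, median 0.02). So did the translation initiation factors (13 of 44 above, 29.5%, and 10 below, 22.7%, median 0.01).

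**Figure D4:**
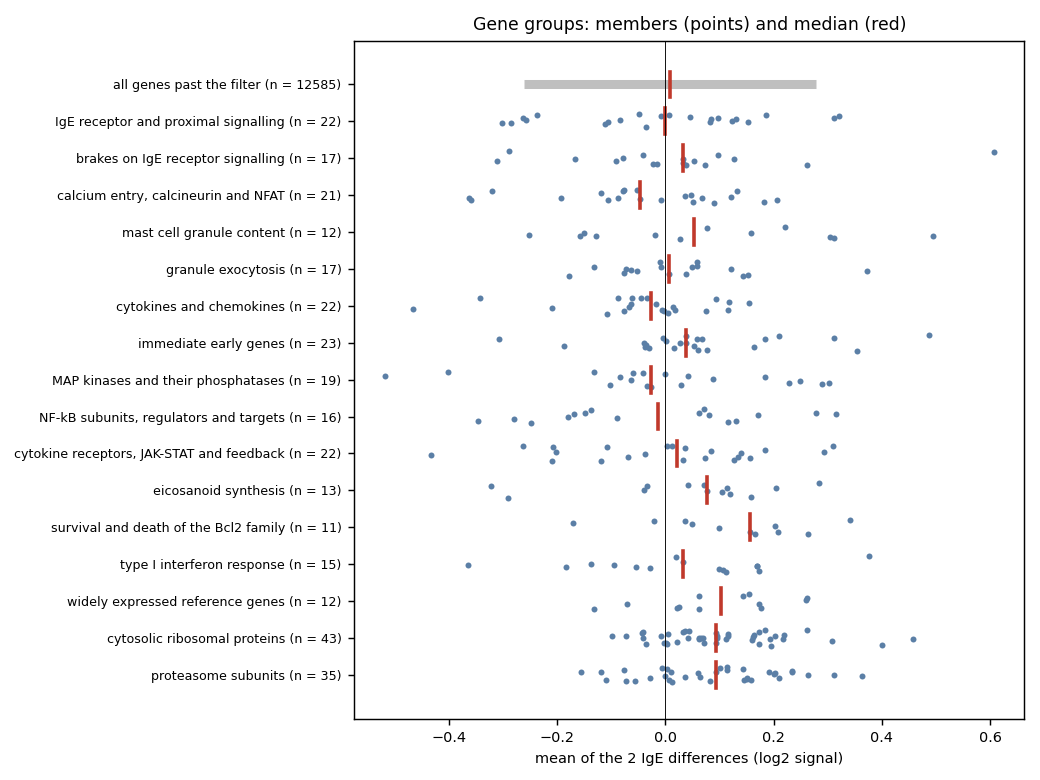
Mean of the 2 IgE differences (log2) for the members of 14 lists and 2 families, 1 point per gene, with a red bar at the median and, for all 12585 genes, a grey bar from the 5th to the 95th percentile. The lists were chosen with earlier results of these data known. Medians lie within 0.16 of 0 for the groups drawn; the Bcl2 family (0.16), the reference genes (0.10) and the ribosomal and proteasome genes (0.09 each) are the farthest to the right, and single members such as Sh2b3 lie far outside their group.

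The largest IgE difference common to both pairs on the whole array belonged to a control probe set. The 18S ribosomal RNA probe set for the 3' part read 11.40 in Control against 12.56 in DNP, and 11.35 in BER against 12.43 in BER+DNP. It was 2.23-fold higher without and 2.11-fold higher with berberine, the first of 45101 probe sets by its smaller difference. The 18S probe sets for the 5' part (-0.22 and 0.49) and the middle (-0.28 and 0.23) did not share it. The 3 beta-actin controls were above 0 in both pairs, by 0.01 to 0.20, as were the 3 Gapdh controls, by 0.01 to 0.19. The 24 poly-A spike controls had medians of -0.13 without and 0.22 with berberine, and the 18 hybridisation controls had medians of -0.07 and 0.00. The medians of the poly-A controls, which carry no RNA of the cells, thus lay in opposite directions in the 2 pairs. They were larger in size than the medians of most gene lists, and the part of these controls in the list medians was not tested.

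**Figure D5:**
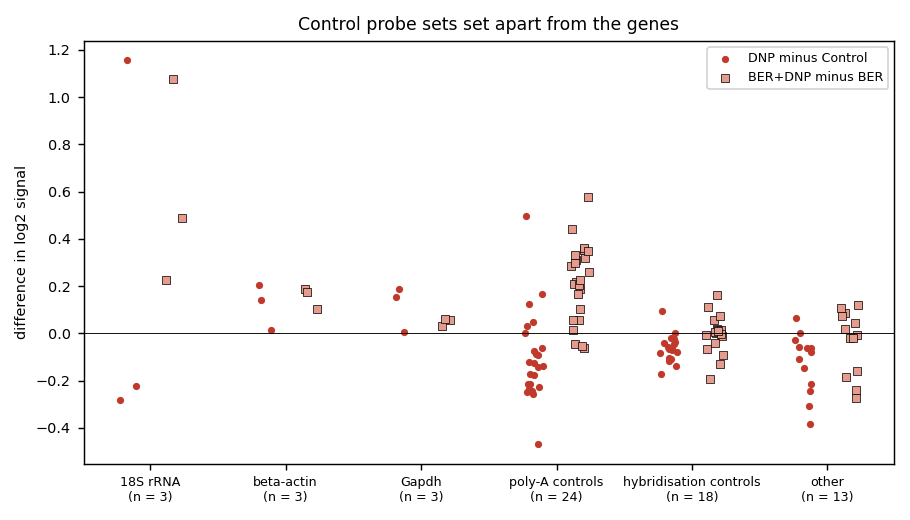
Log2 differences of the 64 control probe sets by class, with circles for DNP minus Control and squares for BER+DNP minus BER, 1 point per probe set. The 18S probe set for the 3' part stands at 1.16 and 1.08, and the poly-A controls lie mostly below 0 in the first pair and above 0 in the second.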

How the data were processed

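RNA of MC/9 cells, 1 array for each of 4 groups, was labelled with a 3' IVT kit and hybridised to Affymetrix Mouse Genome 430 2.0 arrays, per the labels' protocols. The deposited log2 signals were made by the authors with Affymetrix Expression Console, per the submitters' processing notes; which algorithm it ran, and with what background correction, was not given in the sources used here. The scale was taken as log2 from the range of the values. From these values, with pandas 2.3.3, the matched differences DNP minus Control and BER+DNP minus BER were computed per probe set, with no further normalization. Probe sets were named from the platform annotation of 2016: 34945 had 1 symbol, 932 several and 9160 none, and only those with 1 were used. The brightest probe set stood for a gene, and genes at or above the median signal were kept. limma 3.58.1 in R 4.3.3 was fitted to all 45037 probe sets with terms for IgE and berberine (eBayes with trend, Benjamini-Hochberg), and was tested on simulated data.

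Genes named are the 15 highest and 15 lowest by the smaller of the 2 same-direction differences, the 5 largest opposite differences each way, up to 5 members of each list by size, and 17 fixed mast cell, cytokine and early genes; unannotated transcripts were left out. Genes outside that rule are named as chosen after their values were seen: the members of the ribosomal and proteasome families, and the probe sets among the other observations. The members and the 18 lists were chosen with earlier results of these data known. Alternatives were another rule for the gene, other filters, quantile normalization, an offset of 32 or 100 on the unlogged signals, and other folds. No replicate exists within a group.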

Additional observations from a re-analysis of the deposited data

Results flagged for a closer look

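The following genes had IgE differences of opposite sign in the 2 pairs, so their arrays moved one way without berberine and the other way with it. The difference between the pairs was not tested, since each group holds 1 array, and each value is the berberine pair minus the pair without berberine, in log2 units. Higher with IgE only where berberine was present were Prkcq (protein kinase C theta, 1.15), Zfas1 (a noncoding RNA that hosts small nucleolar RNAs, 1.14), Drd2 (a dopamine receptor, 1.13), Tspan8 (a tetraspanin, 1.11) and Mmp23 (a metalloproteinase, 1.07). Prkcq read 4.66 in Control against 4.11 in DNP, and 4.05 in BER against 4.66 in BER+DNP. Higher with IgE only where berberine was absent were Pla2g15 (a lysosomal phospholipase, -1.28), Cntd1 (a meiotic cyclin-like protein, -1.27), B3gnt8 (a glycosyltransferase, -1.17), Wars2 (the mitochondrial tryptophanyl-tRNA synthetase, -1.11) and Mxra8 (a matrix-remodelling surface protein, -1.08). Pla2g15 read 2.52 in Control against 3.48 in DNP, and 3.46 in BER against 3.15 in BER+DNP, so that Control alone was low. These are the extremes of 12585 genes. Their IgE and other arrays overlap in all 10, which follows from picking them for opposite signs.

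The control probe set for the 3' part of 18S ribosomal RNA, which belongs to no gene comparison, was 1.16 log2 units higher in DNP than in Control and 1.08 higher in BER+DNP than in BER.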

How the results depend on the processing

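Leaving out an array was not run, because 3 arrays and 3 coefficients leave no residual degree of freedom. No paired analysis was possible because the labels give no replicate numbers; berberine already matches the arrays. limma gave 0 calls under every model setting. The count of genes 1.5-fold higher in both pairs (2) was 0 with the median of a gene's probe sets, 1 when the filter was the 75th percentile, 0 with 32 and 0 with 100 added to the unlogged signals, 53 at 1.3-fold, 0 at 2-fold, and 6 with every probe set counted by itself, an alternative chosen after seeing the data. The count lower in both (2) was 1 with the median of probe sets, 1 without _x_at and _s_at probe sets, 5 with no filter, 1 at the 75th percentile, 0 with 32 added, 0 with 100 added, 47 at 1.3-fold and 0 at 2-fold. In DNP minus Control, the 101 higher became 57 with the median of probe sets, 46 at the 75th percentile, 1 with 32 and 0 with 100 added; the 79 lower became 43, 32, 0 and 0, and 124 with no filter. In BER+DNP minus BER, the 70 higher became 42, 30, 2 and 1; the 45 lower became 21, 17, 0 and 0, and 73 with no filter. Quantile normalization kept all 4 genes. Sp1 reversed to -0.17 with the median of its probe sets, and Ager to 0.11 without _x_at and _s_at probe sets. Of the 30 leading genes, 5 changed sign with the median of probe sets (Sp1, Tsc22d1, Micos10, Akap9, Mbp) and 3 without _x_at and _s_at probe sets (Epcam, Ager, Micos10); 0 did under the other 5 settings. List medians changed sign under some setting for the receptor, Sp and Klf, exocytosis, NF-kB, MAP kinase, granule and interferon lists. The causes were not tested beyond what each setting leaves out.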

Other observations

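Counted probe set by probe set, further genes stood 1.5-fold apart in both pairs; they were chosen after their values were seen. Cnpy2, which encodes a saposin-like protein of the endoplasmic reticulum, had a probe set at 6.99 in Control against 7.71 in DNP, and 7.39 in BER against 7.98 in BER+DNP. Its 2 other probe sets past the filter were also higher in both pairs, by 0.23 and 0.20 for the brightest and 0.32 and 0.52 for the dimmest. Slc9a3r1, a PDZ scaffold under the plasma membrane, had a probe set 0.67 and 1.15 higher, while its 2 others differed by -0.09 and -0.04, and by -0.17 and 0.28. Ppp5c, a serine/threonine phosphatase, had a probe set 0.71 and 0.69 higher, while its brightest differed by 0.07 and 0.00. Palld, an actin-bundling protein, had a probe set 0.62 and 0.67 higher, while its brightest differed by -0.20 and -0.05. Below the filter, Alox8 (a lipoxygenase) differed by -0.72 and -0.84, Dusp4 (a MAP kinase phosphatase) by -0.79 and -0.63, and Cpn2 (a subunit of carboxypeptidase N) by -0.67 and -0.65.

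Subunits of respiratory complex I, another family chosen after its values were seen, were above 0 in both pairs for 11 of 24 genes (45.8%, against 29.4% of all genes) and below for 3 (12.5%, against 26%), with a median of 0.04. After quantile normalization, 9 of 24 were above (37.5%, against 27.8% of all genes) and 6 below (25%, against 28.8%), with a median of 0.03. Ndufc1 was higher by 0.41 and 0.49, Ndufs1 by 0.21 and 0.30, and Ndufb7 differed by -0.19 and -0.20.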
